A study of Mus musculus with 168 samples.

Results

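The genes described here encode 4 variants of histone H2A (H2afx, H2afz, H2afv and H2afy) and 6 high mobility group (HMG) chromatin proteins (Hmgb1, Hmgb2, Hmgb3, Hmgn1, Hmgn2 and Hmga1). They are 10 of the 43309 gene identifiers in the tables, and all 10 were found by symbol. They were picked by name with results of these same cells known, so every level below is a description and nothing was tested. RNA of 150 single cells from old male C57BL/6 mice was read by Smart-seq2, which sequences along whole polyadenylated transcripts of 1 cell. Astrocytes of mice aged 25 months were picked from striatum (13 cells, SVZ excluded) and from somatosensory cortex (4 cells) after a sort for GLAST without CD45 or O4. Cells of the subventricular zone (SVZ), the stem cell layer beside the lateral ventricle, carried GLAST and CD133 (PROM1) but not CD45, and were labelled as neural stem cells of mice aged 23 months, although their protocol gives 22 months. The names of 68 SVZ cells begin with ogp and those of 65 with ogp2. Those of 11 striatum cells begin with OGStr and those of 2 with OStr. Tissue of 3 or 4 mice was pooled and the labels tie no cell to an animal. Each group is therefore 1 sample, cells are not replicates, and ranges are spreads between cells.

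Nucleosomes wrap DNA around an octamer of core histones, and variant H2A proteins replace the replication-coupled H2A at chosen places and times. H2afx encodes H2A.X, which is phosphorylated next to DNA double-strand breaks. H2afz and H2afv encode the 2 H2A.Z proteins, placed at promoters by SRCAP and p400 complexes, and H2afy encodes macroH2A1, a variant with a large extra domain that is found in silent chromatin. HMG proteins bind chromatin without being histones: HMGB proteins bend DNA through HMG boxes, HMGN proteins bind nucleosomes and loosen chromatin, and HMGA1 binds the minor groove of AT-rich DNA through AT hooks. In the adult SVZ, stem cells are mostly quiescent, and activated ones divide and give rise to neuroblasts.

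SVZ cells were described by Mki67, a gene transcribed in cycling cells, and by the share of a cell's TPM that 82 cytosolic ribosomal protein genes hold. TPM is a relative level per transcript length, scaled to the same total in every cell. Mki67 counted as detected at 1 TPM or more, which took 11 cells and left all other SVZ cells undetected. The highest undetected cell had 0.04 TPM of Mki67 and the lowest detected cell 4.71 TPM. A high ribosomal share meant 6% or more (21 cells, of which 9 were Mki67-detected), an intermediate share 3% to 6% (12 cells, of which 10 were Mki67-undetected) and a low share under 3% (100 cells, all Mki67-undetected). The cells on either side of the limits had shares of 2.75% and 3.01%, and of 5.91% and 6.54%, and 11 cells lay within 0.5 points of the lower limit. Below, "high-share", "intermediate-share" and "low-share" cells are Mki67-undetected SVZ cells unless stated otherwise.

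The classes also differed in how many genes they showed. At 1 TPM or more, the median Mki67-detected cell had 6805 genes, the median high-share cell 5258 and the median low-share cell 3248, with 3662 in striatum and 3412 in cortex. Read depth cannot be recovered from TPM, and a value of 0 means only that the gene is listed at 0. The summed level of 6 astrocyte markers (such as Slc1a3 and Aqp4) had a median of 806 TPM in Mki67-detected cells (298 to 2183), 3707 in high-share cells (636 to 13806), 18633 in low-share cells (2948 to 30446), 16727 in striatum and 19154 in cortex. Of 6 neuroblast markers, 4 were detected in at least 1 Mki67-detected cell, with a summed median of 36.3 TPM (0 to 375) and Dlx6os1 and Sp8 listed at 0. The 7 stem cell markers were Prom1, Nes, Sox2, Gfap, Vim, Thbs4 and Fabp7. Nes was listed at 0 in all low-share, striatum and cortex cells, Thbs4 in all striatum and cortex cells, and Prom1 in all striatum cells. The summed level of the 7 had a median of 1385 TPM in Mki67-detected, 1929 in high-share and 1565 in intermediate-share cells. Their summed level had a median of 353 TPM in low-share cells, 76 in striatum and 344 in cortex. That of 7 oligodendrocyte lineage markers had a median of 123.5 TPM in Mki67-detected cells (0 to 902), 108.8 in high-share cells (0 to 719), 43 in intermediate-share cells (0 to 7043), 0.16 in low-share cells (0 to 6366), 0 in striatum and 305 in cortex, and Mog, Sox10 and Pdgfra were listed at 0 in Mki67-detected and high-share cells. All 5 microglia markers were listed at 0 in Mki67-detected, striatum and cortex cells, and their sum reached 391 TPM in 1 class, the intermediate-share cells, with at most 16.9 TPM in low-share cells. The part of gene number and of these marker lists in the differences below was not tested.

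The stretches upstream of 9 of the 10 genes could be read from RefSeq (GRCm38.p6), matched by gene ID, while H2afx had no entry. Windows of 250 bases before the annotated start are shown for the 2 H2A.Z genes and for Hmgb2 and Hmgb3, chosen after the matches were seen. These 4 hold 2 or more CCAAT boxes and 3 of them a CHR element. Hmgb1 and Hmgn1 also hold 2 or more CCAAT boxes and are not shown. They lie at chr3:137864237-137864486 (plus strand) for H2afz, chr11:6444444-6444693 (minus) for H2afv, chr8:57511593-57511842 (plus) for Hmgb2 and chrX:71555667-71555916 (plus) for Hmgb3. Capitals mark CCAAT or its complement ATTGG, and the CHR words TTTGAA and TTCGAA or their complements.
H2afz: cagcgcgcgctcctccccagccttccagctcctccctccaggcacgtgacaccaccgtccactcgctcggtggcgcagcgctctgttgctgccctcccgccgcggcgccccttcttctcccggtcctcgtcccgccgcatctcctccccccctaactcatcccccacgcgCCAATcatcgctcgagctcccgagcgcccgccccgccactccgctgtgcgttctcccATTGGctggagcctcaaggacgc
H2afv: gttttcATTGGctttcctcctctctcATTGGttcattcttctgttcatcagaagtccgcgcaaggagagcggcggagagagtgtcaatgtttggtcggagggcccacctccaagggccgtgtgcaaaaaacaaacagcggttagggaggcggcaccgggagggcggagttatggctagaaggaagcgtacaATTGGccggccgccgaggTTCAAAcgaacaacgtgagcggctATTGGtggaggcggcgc
Hmgb2: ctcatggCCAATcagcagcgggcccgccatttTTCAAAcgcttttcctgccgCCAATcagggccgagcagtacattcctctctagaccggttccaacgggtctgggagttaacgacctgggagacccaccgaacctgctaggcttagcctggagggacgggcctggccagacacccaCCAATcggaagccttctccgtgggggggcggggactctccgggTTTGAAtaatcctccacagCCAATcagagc
Hmgb3: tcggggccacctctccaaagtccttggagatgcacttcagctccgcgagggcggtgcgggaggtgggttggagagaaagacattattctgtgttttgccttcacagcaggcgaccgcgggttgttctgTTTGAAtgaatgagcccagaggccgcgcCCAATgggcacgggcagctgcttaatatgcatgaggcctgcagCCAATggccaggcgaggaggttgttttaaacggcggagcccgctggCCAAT
The CCAAT box is bound by the factor NF-Y, and the cell cycle homology region (CHR) by DREAM and B-MYB complexes in genes of the G2 and M phases. Counted back from the start, and by the left end of each match as printed, Hmgb2 had CCAAT matches at -243, -198, -73 and -11 and CHR matches at -218 and -30. H2afv had 4 CCAAT matches and a CHR at -41, Hmgb3 had 3 and a CHR at -122, and H2afz had 2, at -80 and -23. Hmgb1 held 3 CCAAT matches in 1 of its 2 windows and Hmgn1 held 2. In all, 6 of 9 genes had 2 or more CCAAT matches, as did 10.1% of 32851 promoter windows. With 1 or more CCAAT matches the count was also 6 of 9, against 33.8% of windows. At least 1 CHR match was found in 3 of 9, as in 17.1% of windows. A gene was counted by its window with the most matches, whereas the percentages are over single windows, of 27025 genes. No match of either motif was found for H2afy, Hmgn2 or Hmga1. The RefSeq windows of H2afy and Hmgn2 lie inside the gene spans given below, and those of Hmga1 partly so. The full stretch before the outermost start of these genes was therefore not searched. An E2F word (TTT, then 2 bases that are each C or G, then CGC) occurred in 0 of the 9 genes and in 1.86% of windows, and TATAAA in 0 of 9 and 12.4%. Both strands were searched, and matches of different motifs did not overlap in these windows. These matches are letters in a window and say nothing of binding.

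All 10 genes were higher in Mki67-detected than in Mki67-undetected SVZ cells, by 2-fold or more of mean TPM. Of 9363 genes with a mean of 10 TPM or more in either class, 26.9% were 2-fold or more higher in Mki67-detected cells. The median log2 difference, taken as log2 of (mean TPM + 1) in the first class over that in the second, was 3.24 for the 10 genes and 0.09 for all genes tested. For none of the 10 was every Mki67-detected cell above every undetected cell. This was the case for 0.0107% of genes tested, which is 1 gene, Mki67 itself, by which the cells were split. High-share cells, counted here with their Mki67-detected members, were above low-share cells for 10 of 10 genes, against 26.8% of 9332 genes tested. Within Mki67-undetected cells the count of 2-fold higher genes in high-share cells was 8 of 10 (25.3% of 9231 genes tested), the exceptions being H2afx and Hmga1, both of which were above 2-fold as differences of mean log2 values.

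**Figure D1:**
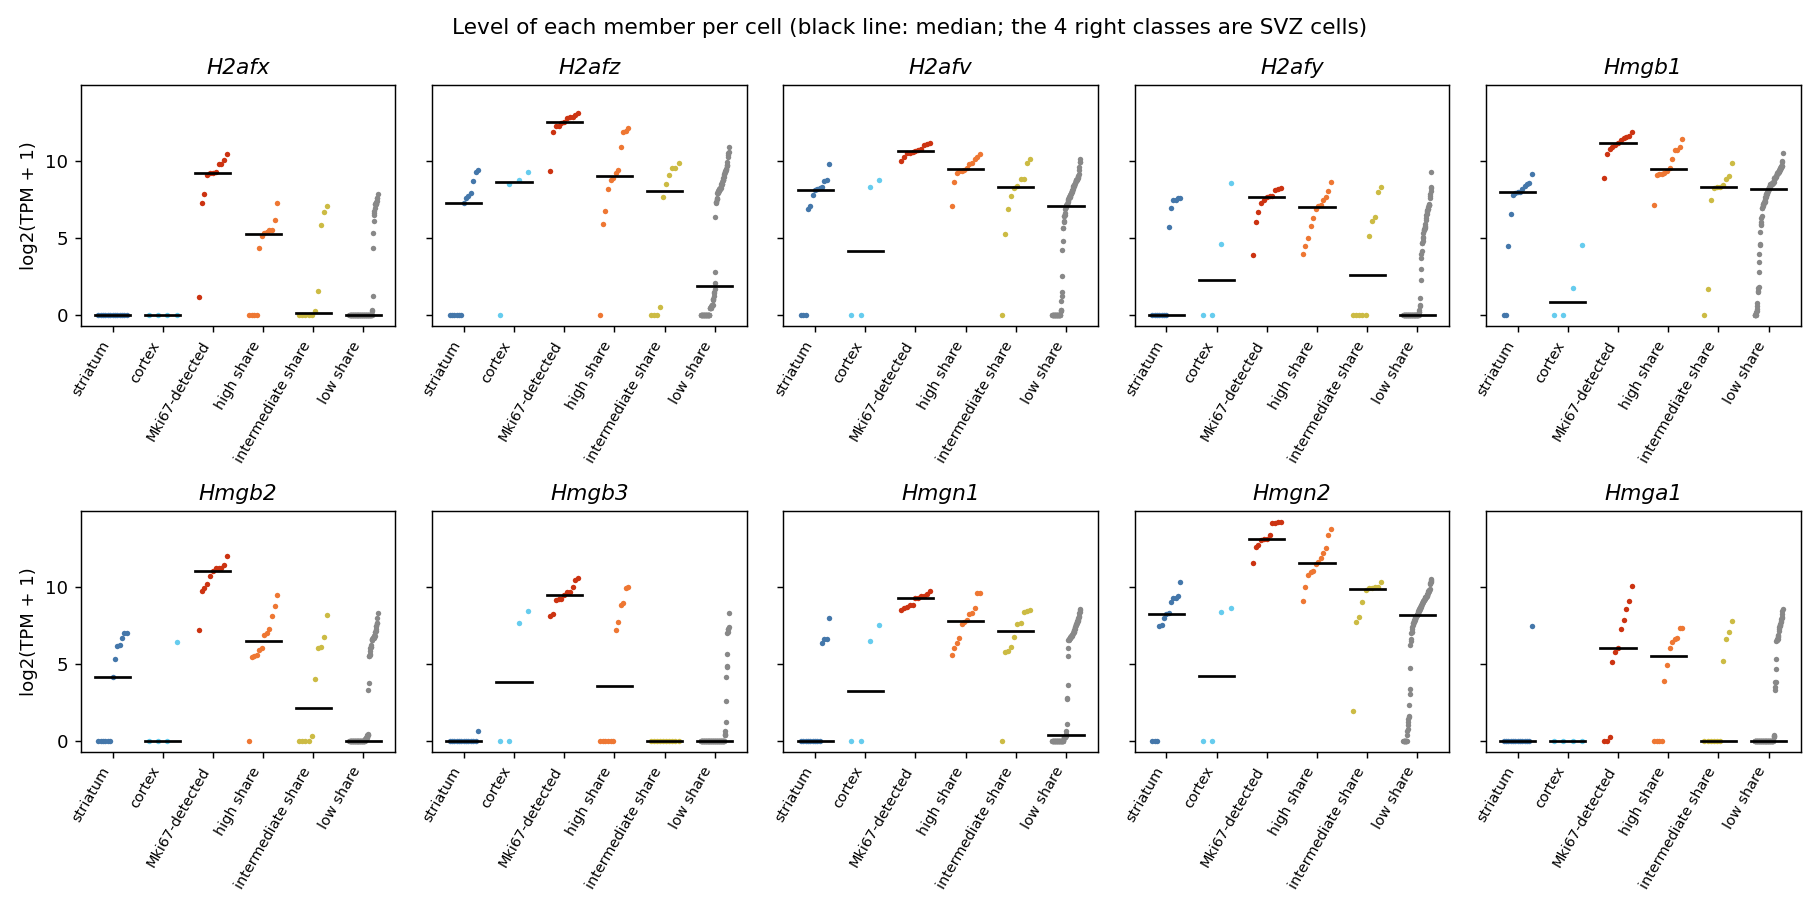
Each panel shows 1 gene, with the level per cell as log2(TPM + 1) on the vertical axis for striatum (13 cells), cortex (4) and SVZ cells split into Mki67-detected (11) and Mki67-undetected cells of high (12), intermediate (10) and low (100) ribosomal share; dots are cells and black lines medians. The Mki67-detected cells stand highest for H2afx, with a median of 604 TPM against medians of 0 in low-share, striatum and cortex cells, whereas the classes overlap widely for H2afy.

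H2afx (chr9:44334694-44336077, plus strand) had the largest log2 difference of class means by Mki67 among the 4 variants, although as a difference of mean log2 values that of H2afz was larger (7.41 against 6.97). It had 1.23, 604 and 1403 TPM as lowest, median and highest of Mki67-detected cells, against 0, 0 and 230 TPM in undetected cells. It was detected in 11 of 11 Mki67-detected cells (exact 95% Clopper-Pearson interval 71.5% to 100%, counting error only) and in 24.6% of undetected cells (17.2% to 33.2%). The log2 difference was 4.65, and 70.2% of all H2afx TPM in SVZ cells lay in the 11 cells. By ribosomal share the mean of H2afx was 37.3 TPM in high-share and 22.5 TPM in low-share cells, a log2 difference of 0.70. This value depended on how it was taken: it was 1.36 in ogp cells and 0.02 in ogp2 cells, 1.14 with share limits of 2% and 5%, and 2.54 as a difference of mean log2 values. Detection was 8 of 12 in high-share cells, against 18 of 100 in low-share cells. At 100 TPM or more stood 10 of 11 Mki67-detected, 1 of 12 high-share, 2 of 10 intermediate-share and 12 of 100 low-share cells. H2afx was listed at 0 in all 13 striatum cells and all 4 cortex cells.

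The 2 H2A.Z genes were each detected in some cells of every class, and by Mki67 H2afz differed more than H2afv. At 1 TPM or more, H2afz was found in 63.2% of SVZ cells, 56 of 100 low-share cells and 7 of 13 striatum cells. For H2afv these values were 73.7%, 66 of 100 and 10 of 13. H2afz (chr3:137864487-137866922, plus strand) had 666, 5899 and 8830 TPM in Mki67-detected cells, against 0, 159 and 4586 TPM in undetected cells, a log2 difference of 3.96. Its mean was 1404 TPM in high-share, 355 TPM in intermediate-share and 258 TPM in low-share cells, and the log2 difference of high over low share was 2.44. The spread inside the high-share class was wide, from 0 TPM to the 4586 TPM that 1 cell reached. H2afv (chr11:6427229-6444443, minus strand) had 1016, 1637 and 2298 TPM in Mki67-detected cells, against 0, 173 and 1396 TPM in undetected cells, and 5 undetected cells reached the lowest Mki67-detected cell. Its log2 differences were 2.63 by Mki67 and 2.01 by ribosomal share among undetected cells. By mean level H2afz was above H2afv in Mki67-detected cells (5903 against 1674 TPM). The order was reversed in striatum, where H2afz averaged 195 and H2afv 264 TPM with overlapping cells. It was also reversed in intermediate-share cells (355 TPM of H2afz and 398 TPM of H2afv). In low-share cells H2afz had the higher mean (258 against 194 TPM) but the lower median (2.75 against 134 TPM).

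H2afy (chr13:56073619-56136361, minus strand) is the macroH2A1 gene, and its levels overlapped widely between the classes. Mki67-detected cells had 13.8, 206 and 310 TPM, against 0, 0.16 and 618 TPM in undetected cells, and the highest SVZ cell of all was a low-share cell. The log2 difference was 1.72 by Mki67 and 1.64 by ribosomal share among undetected cells. It was detected in 12 of 12 high-share cells, 5 of 10 intermediate-share cells and 40 of 100 low-share cells. Of the 11 SVZ cells with the highest H2afy, 3 were Mki67-detected, against 9 for H2afx, 9 for H2afz and 10 for H2afv.

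Detection in SVZ cells differed widely among the HMGB genes. Hmgb1 (chr5:149046702-149184489, minus strand) was the most widely detected of the 10, in 91% of SVZ cells (84.8% to 95.3%). It had 487, 2310 and 3707 TPM in Mki67-detected cells, against 0, 327 and 2714 TPM in undetected cells, a log2 difference of 2.51. Its mean was 1081 TPM in high-share, 335 TPM in intermediate-share and 331 TPM in low-share cells. Hmgb1 shares sequence with 59 listed pseudogenes, which held 26.9% of the TPM of gene and pseudogenes together in SVZ cells and 25.9% in striatum, so its level is uncertain by about that share.

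Hmgb2 (chr8:57511907-57515999, plus strand) had the largest log2 difference of class means by Mki67 among the 10, at 5.17, but Hmgb3 was above it as a difference of mean log2 values (8.42 against 7.86), and in ogp2 cells Hmgb3 and Hmga1 were. Mki67-detected cells had 148, 2082 and 4034 TPM, against 0, 0.11 and 710 TPM in undetected cells. Detection was 11 of 11 cells, against 40.2% of undetected cells (31.4% to 49.4%), and 76.8% of all Hmgb2 TPM in SVZ cells lay in the 11 Mki67-detected cells. Among undetected cells its mean was 173 TPM in high-share and 36.5 TPM in low-share cells, a log2 difference of 2.21.

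Hmgb3 (chrX:71555918-71560676, plus strand) was detected in the fewest SVZ cells of the 10, 21.8%. It had 270, 711 and 1501 TPM in Mki67-detected cells, against 0, 0 and 1039 TPM in undetected cells, a log2 difference of 4.37. Of high-share cells, 6 of 12 had Hmgb3 (146 to 1039 TPM) and the other 6 were listed at 0. All 10 intermediate-share cells were listed at 0, and 12 of 100 low-share cells had it at 1 TPM or more. Its log2 difference of high over low share was 4.44 among Mki67-undetected cells, a value that 0.83% of tested genes reached. The 4 high-share cells with the largest summed level of the 10 genes had 491, 447, 958 and 1039 TPM of Hmgb3, and H2afz at 1936, 3704, 4586 and 3950 TPM. Both genes are part of that sum, so the cells were picked partly by these values. H2afx in these same 4 cells was at 40.7, 45.7, 44.3 and 0 TPM. The first of these cells is one of 5 ogp cells whose deposited values summed to far less than 1000000 TPM before rescaling, and without those 5 cells the log2 difference of Hmgb3 was 4.28.

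Hmgn2 (chr4:133964738-133968650, minus strand) had the highest mean of the 10 in every SVZ class and in striatum. It had 3014, 8713 and 19188 TPM in Mki67-detected cells, against 0, 379 and 13783 TPM in undetected cells, a log2 difference of 3.85. Its mean was 4356 TPM in high-share, 706 TPM in intermediate-share and 377 TPM in low-share cells, and every high-share cell had at least 539 TPM. The log2 difference of high over low share was 3.53. Hmgn1 (chr16:96120618-96127729, minus strand) followed the same order at a lower level, with 356, 620 and 848 TPM in Mki67-detected cells, against 0, 61.3 and 787 TPM in undetected cells. Its mean was 290 TPM in high-share, 172 TPM in intermediate-share and 73.9 TPM in low-share cells, and 5 undetected cells reached the lowest Mki67-detected one. Hmgn2 has 10 listed pseudogenes (2.71% of the joint TPM in SVZ cells) and a near copy, Gm10282, with 52.9 TPM.

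Hmga1 (chr17:27556497-27563674, plus strand) was the least regular of the 10. It had 0, 63.5 and 1056 TPM in Mki67-detected cells, against 0, 0 and 375 TPM in undetected cells. It was detected in 8 of 11 cells (39% to 94%), against 33.6% of undetected cells (25.3% to 42.7%). The log2 difference was 2.31, and the cell with 1056 TPM was also the one with the lowest Mki67 among the detected. That cell stood apart: it had 4.71 TPM of Mki67, the largest ribosomal share of any cell (15.1%), 1.23 TPM of H2afx and the lowest H2afz of its class. With Mki67 counted from 10 TPM, which moves this 1 cell, the log2 difference of Hmga1 was 1.43, and by detection of Top2a in place of Mki67 it was 0.97. With its near copy Hmga1b added, the log2 difference was 2.25. High-share and low-share cells had means of 59.3 and 43.2 TPM of Hmga1, a log2 difference of 0.45.

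The 2 splits of SVZ cells ordered the genes differently. Among cells of high ribosomal share, 9 Mki67-detected cells were set against 12 undetected ones, a comparison added after the data had been seen. There 9 of 10 genes were 2-fold or more higher in Mki67-detected cells, against 18.6% of 8978 genes tested. The log2 difference was 3.98 for H2afx (603 against 37.3 TPM), 3.38 for Hmgb2 (1807 against 173 TPM), 2.22 for Hmga1 and 2.10 for H2afz (6018 against 1404 TPM). Without the Mki67-detected cell that had 1056 TPM of Hmga1, that of Hmga1 was 1.61. It was 1.53 for Hmgb3 and 1.51 for Hmgn2, whose mean was 12409 TPM against 4356 TPM. H2afv, Hmgb1 and Hmgn1 lay at the 2-fold limit, with 1.06, 1.03 and 1.03, and H2afy was below it with 0.47. Leaving out 1 cell at a time took the count to between 6 and 9, as these 3 genes crossed the limit. In the other split, high over low share without Mki67-detected cells, Hmgb3 (4.44) and Hmgn2 (3.53) led, and H2afx (0.70) and Hmga1 (0.45) came last. The same 12 undetected high-share cells are the upper class of this split and the lower class of the former. A high level in them raises 1 difference and lowers the other, so an opposed order can be partly built in.

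**Figure D2:**
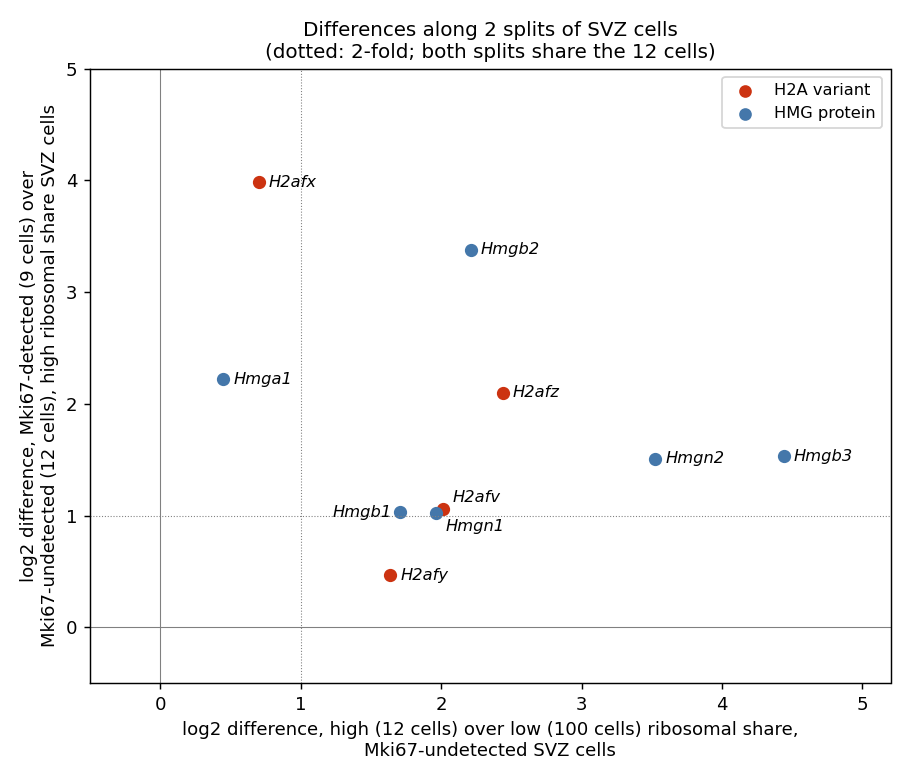
Each point is 1 gene; the horizontal axis gives the log2 difference of 12 high-share over 100 low-share Mki67-undetected SVZ cells, the vertical axis that of 9 Mki67-detected over the same 12 undetected high-share cells, and dotted lines mark 2-fold. H2afx (0.70 and 3.98) lies at the upper left and Hmgb3 (4.44 and 1.53) at the right. The axes share 12 cells, and a high level in these raises the horizontal value and lowers the vertical one.

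Most of the 10 genes were lower in striatum astrocytes than in the SVZ cells as a whole. Striatum cells were 2-fold or more below SVZ cells for 8 of 10 genes, against 28.4% of 9129 genes tested, and above them for 0 of 10 (12.3%). Against ogp2 cells alone the count was 5. The median log2 difference was -2.10 for the 10 genes and -0.26 for all genes tested. H2afx was listed at 0 in every striatum cell, against a mean of 75.6 TPM in SVZ cells, and Hmgb3 was at 0.54 TPM in 1 striatum cell and 0 in 12, against a mean of 97.6 TPM. A count of 0 among 13 cells allows a share of up to 24.7% (exact 95% interval), and the SVZ shares were 30.8% for H2afx (23.1% to 39.4%) and 21.8% for Hmgb3 (15.1% to 29.8%). Hmga1 was detected in 1 of 13 striatum cells, at 173 TPM, against 36.8% of SVZ cells, and without that cell it is listed at 0 throughout striatum. That cell is 1 of the 2 OStr cells. Hmgb2 averaged 42.9 TPM in striatum and 203 TPM in SVZ cells, a log2 difference of -2.21, but the median cell was higher in striatum (17.1 against 0.17 TPM), detection was 53.8% against 45.1%, and the difference of mean log2 values was -0.04.

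For all 10 genes the levels in striatum cells overlapped those in SVZ cells of low ribosomal share. Hmgn2 had 0, 295 and 1277 TPM in striatum, against 0, 291 and 1437 TPM in low-share cells, and the means were 378 and 377 TPM. Hmgb1 had 0, 259 and 578 TPM, against 0, 291 and 1451 TPM. H2afz averaged 195 TPM in striatum and 258 TPM in low-share cells, H2afv 264 and 194 TPM, and H2afy 70.2 and 43.3 TPM. Hmgb2 averaged 42.9 and 36.5 TPM, with detection in 7 of 13 and 33 of 100 cells. Hmgn1 averaged 40.9 and 73.9 TPM, and its highest striatum cell, at 256 TPM, was the other OStr cell. Set against low-share cells, 3 of 10 genes were 2-fold or more lower in striatum (H2afx, Hmgb3 and Hmga1), a share of the list near the 24.6% of 8878 genes tested. Most low-share cells also lacked these 3 genes, with detection in 18, 12 and 29 of 100 cells, against 0, 0 and 1 of 13 striatum cells. The ribosomal share had a median of 1.65% in striatum and 1.69% in low-share cells.

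Cortex rests on 4 cells. H2afz was at 0, 431, 359 and 623 TPM, H2afv at 0, 323, 440 and 0 TPM, and H2afy at 0, 23.9, 379 and 0 TPM, in the same order of cells. Hmgb1 was at 0, 2.34, 22.2 and 0 TPM, Hmgb2 at 0, 0, 0 and 86.7 TPM, and Hmgb3 at 0, 0, 204 and 347 TPM. Hmgn1 was at 184, 0, 0 and 90.5 TPM, Hmgn2 at 403, 0, 336 and 0 TPM, and H2afx and Hmga1 were listed at 0 in all 4. The first of these cells carried only Hmgn1 and Hmgn2. Cortex was 2-fold or more below SVZ cells for 8 of 10 genes, where 43.4% of 8990 genes tested were, and the count was between 6 and 8 with 1 cortex cell left out. It was 5 against ogp2 cells alone. For H2afz the log2 difference of cortex over SVZ means was -1.24, whereas the difference of mean log2 values was 1.12.

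Between striatum and cortex, 4 of 9 genes tested differed by 2-fold or more, against 67.2% of 8318 genes tested. The count was 7 without the third cortex cell, and 7 by means of log2 values. Of these, 3 were higher in striatum, where 38.3% of tested genes were. Hmgb1 averaged 236 TPM in striatum and 6.14 TPM in cortex, a log2 difference of 5.05 that was between 4.69 and 7.05 when 1 cell was left out. Striatum cells ran from 0 to 578 TPM, with 11 of 13 detected, so all 4 cortex cells (0 to 22.2 TPM) lie within the striatum range. Hmgn2 averaged 378 and 185 TPM, and Hmga1 averaged 13.3 TPM in striatum, all of it in 1 cell, while it was listed at 0 in cortex. Hmgb3 was the 1 gene lower in striatum, where 28.9% of tested genes were, with 0.04 TPM on average against 138 TPM in cortex, 2 of whose 4 cells carried it.

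**Figure D3:**
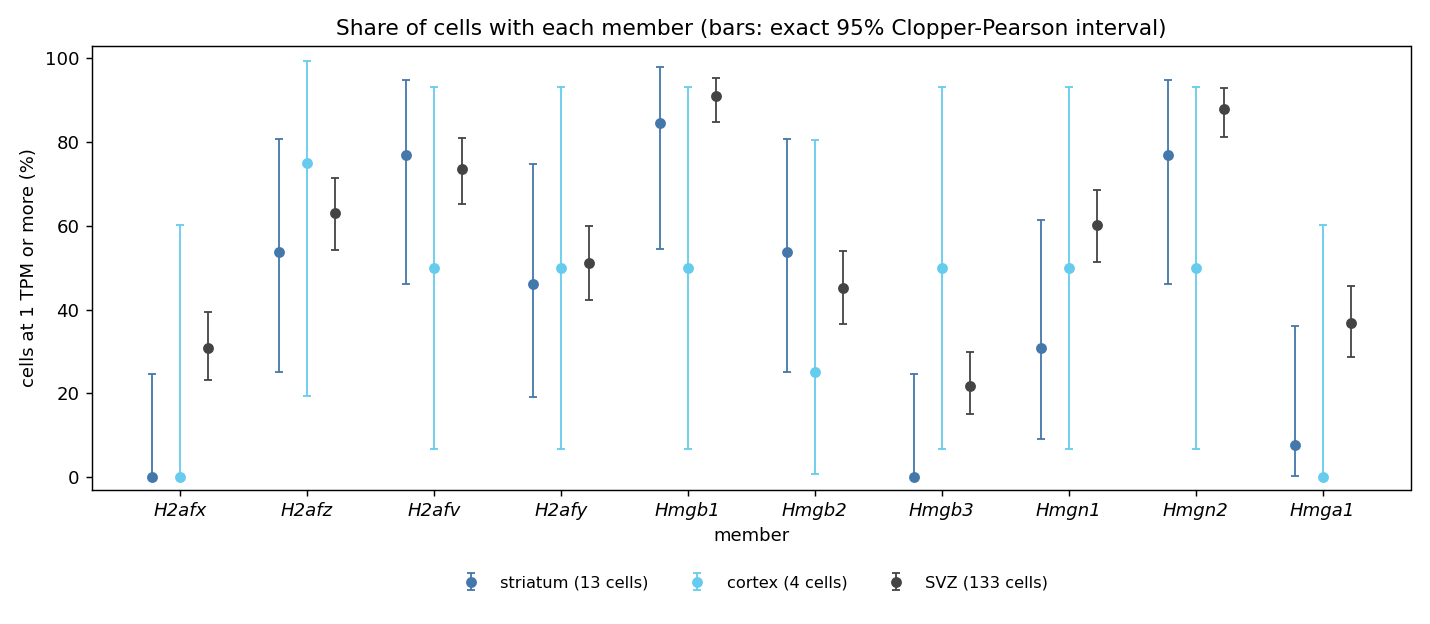
The vertical axis gives the percentage of cells with each gene at 1 TPM or more, for striatum (13 cells), cortex (4 cells) and all SVZ cells, with exact 95% Clopper-Pearson intervals as bars. H2afx stands at 0% in striatum and cortex and 30.8% in SVZ, and Hmga1 at 7.69% in striatum and 36.8% in SVZ. For every gene the intervals of striatum and SVZ overlap.

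The 10 genes together held 2.44% of TPM in the median Mki67-detected cell (0.715% to 4.02%), 0.534% in the median high-share cell (0.268% to 2.45%), 0.210% in the median intermediate-share cell, 0.127% in the median low-share cell (0.029% to 0.378%), 0.110% in striatum (0.062% to 0.186%) and 0.096% in cortex. The median cell had 10 of the 10 genes at 1 TPM or more among Mki67-detected cells, 9 among high-share cells, 5 among low-share cells and 4 in striatum. Within the 100 low-share cells the genes showed little relation to each other: over their 45 pairs the Pearson r of log2(TPM + 1) had a median of 0.01 and ran from -0.19 to 0.20. Over all SVZ cells the median r was 0.29 and the highest 0.57, for Hmgb2 with Hmgb3, whose r was 0.10 within low-share cells. These cells come from 2 name series and differ in gene number, and the part of either in the r values was not tested.

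**Figure D4:**
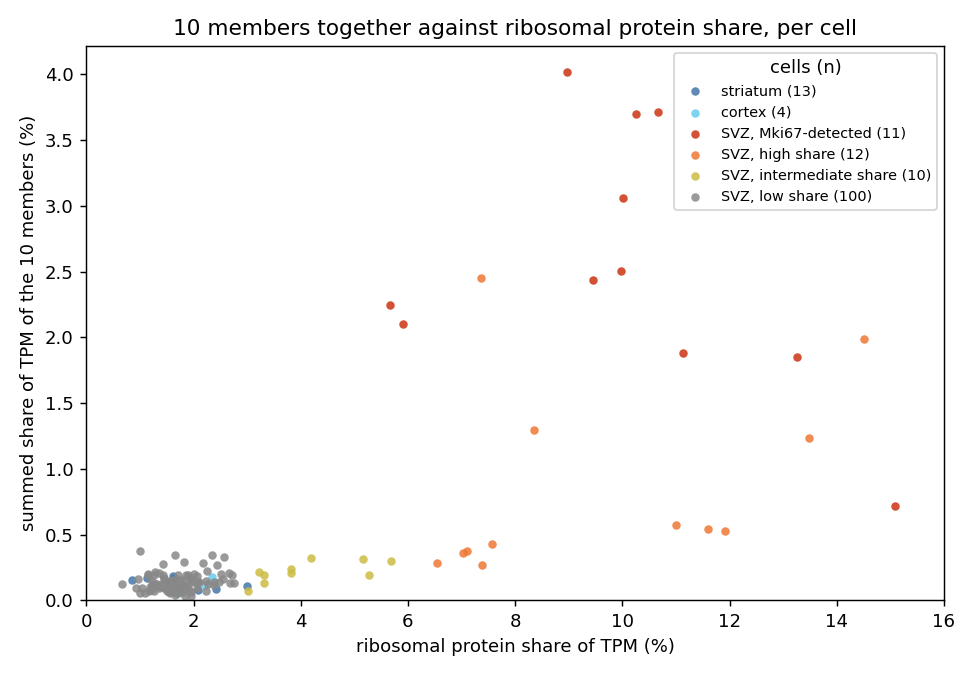
Each dot is 1 cell; the horizontal axis gives the percentage of TPM in 82 ribosomal protein genes and the vertical axis the percentage of TPM in the 10 H2A variant and HMG genes together. Low-share, striatum and cortex cells lie between 0.029% and 0.378%, and the 11 Mki67-detected cells between 0.715% and 4.02%, a range into which 4 of the 12 high-share cells fall.

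The ogp series held 9 of the 11 Mki67-detected cells, so both series were looked at apart. The log2 differences by Mki67 in ogp (9 against 59 cells) and ogp2 (2 against 63 cells) were 5.13 and 3.32 for H2afx, 3.89 and 3.29 for H2afz, 5.16 and 3.65 for Hmgb2, 3.94 and 3.93 for Hmgb3, 3.51 and 3.36 for Hmgn2, and 1.61 and 3.76 for Hmga1. Over all cells, ogp was 2-fold or more above ogp2 for 5 of 10 genes (14.5% of 9113 genes tested). In low-share cells alone, H2afz averaged 258 TPM in ogp and 257 TPM in ogp2, Hmgb1 328 and 334 TPM, and Hmgn2 446 and 319 TPM.

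The genes whose level was most like that of each member were found as the 5 with the highest Pearson r of log2(TPM + 1) over all SVZ cells, and are named where r was 0.5 or more. For H2afx these were Cks2 (0.64), Sinhcaf (0.63), Wee1 (0.63), Ube2c (0.63) and Racgap1 (0.62), out of 76 genes at 0.5 or more. For Hmgb2 they were the RNA Lockd (0.63), Mcm5 (0.60), Aldh18a1 (0.60), Birc5 (0.59) and Tacc3 (0.58). For Hmgb3 they were Mcm5 (0.76), Uhrf1 (0.75), Rrm2 (0.75), Birc5 (0.73) and Cdk6 (0.73). Within Mki67-undetected cells r of Hmgb3 was 0.56 for Mcm5, a subunit of the replicative helicase. It was 0.59 for Uhrf1, which keeps DNA methylation through replication, 0.51 for Rrm2, 0.45 for Birc5 and 0.52 for Cdk6. Mcm5 was detected in 16, Uhrf1 and Rrm2 in 15, Birc5 in 18 and Cdk6 in 20 SVZ cells, so these values rest on few cells. Within Mki67-undetected cells, r of H2afx was 0.37 with Wee1, 0.34 with Sinhcaf, 0.28 with Cks2, 0.19 with Ube2c and 0.17 with Racgap1. That of Hmgb2 was 0.34 with Lockd and Aldh18a1, 0.33 with Mcm5, 0.31 with Tacc3 and 0.26 with Birc5. Over all SVZ cells, H2afz had Jpt2, Lockd and Magohb (0.51 each), H2afy had Cct8 (0.52) and Tfdp2 (0.50), and Hmgn2 had Marcks (0.55) and Marcksl1 (0.53). In the same order, r within Mki67-undetected cells was 0.33, 0.29 and 0.38 for H2afz, 0.48 and 0.41 for H2afy, and 0.42 and 0.41 for Hmgn2. Predicted genes, near copies included, made up another 1 for H2afz and 3 for Hmgn2. Hmgb1 had 2 of its pseudogenes, and H2afv, Hmgn1 and Hmga1 had none at 0.5.

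Other genes of the same pathways were read as lists, with the difference by Mki67. Their counts are to be set beside the 26.9% of all tested genes that were 2-fold or more higher. Of 17 cell cycle genes all 17 were 2-fold or more higher in Mki67-detected cells. Of 21 histone chaperones tested, 19 were 2-fold or more higher in Mki67-detected cells and 0 lower. Examples are Npm1, the nucleolar chaperone nucleophosmin (1147 against 229 TPM), Rbbp7, which binds H4 (497 against 154 TPM), and Chaf1a, the large subunit of CAF-1 (42.2 against 2.09 TPM), while Asf1b was at 60.8 TPM and listed at 0 in undetected cells. In high-share cells split by Mki67, 6 of 21 chaperones were 2-fold or more higher, against 18.6% of genes tested there. Of 19 genes of H2A.Z exchange tested, 9 were higher and 1, Trrap, was lower. Among the higher were Anp32e, which removes H2A.Z (438 against 72.8 TPM), and Ruvbl2, an ATPase of the exchange complexes (226 against 53.4 TPM), while Morf4l1 had 245 against 230 TPM. The other histone variants tested were higher in 4 of 4 cases, with H3f3b, which encodes H3.3, at 3125 against 456 TPM, H3f3a at 1790 against 614 TPM, and Cenpa, the centromeric H3, at 766 against 3.10 TPM.

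Relatives of the HMG genes were mixed, with 6 of 14 tested genes higher and 1 lower. Hmgn3 had 298 TPM in Mki67-detected and 467 TPM in undetected cells, unlike Hmgn1 and Hmgn2, whereas Hmgn5 was higher by 3.14 on the log2 scale and Ssrp1, the HMG-box subunit of FACT, 242 against 58.4 TPM. Tox2 was listed at 0 in Mki67-detected cells, against 37.2 TPM. Of 9 other H2A genes tested, 5 were higher and 2 lower. Hist1h2ap, a replication-coupled H2A gene, had 2484 against 18.8 TPM, while Hist2h2aa1 had 1.55 against 201 TPM. Such genes mostly yield transcripts without a poly(A) tail, and 16 genes, of which most are H2A genes and 1 is Hist1h2ap, share some stretches of 31 bases with H2afx. Their part in the H2afx values was not tested. Of 7 genes of H2AX signalling tested, 2 were higher, a share near that of all tested genes: Mdc1 (16.3 against 1.69 TPM) and Mre11a (14.8 against 4.38 TPM). Of the 4 HMGB1 receptor genes, 0 reached 10 TPM in either class, and Tlr2 and Tlr4 were detected in 0 cells of both.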

How the data were processed

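The deposited table holds TPM per gene and cell, which the submitters' processing notes tie to STAR 2.4.0g1, RSEM 1.2.18 and mm10, and the gene annotation is not given in the sources used here. Columns summed to 1000000 TPM or close to it, except 5 ogp cells (66189 to 309864 TPM, none Mki67-detected). Each cell was rescaled to 1000000. Symbols and positions came from GENCODE on GRCm38. Classes were compared by the log2 ratio of their mean TPM, after adding 1 to each mean, for genes with a mean of 10 TPM or more in either class. Called means 2-fold or more. Detection means 1 TPM or more, with exact Clopper-Pearson 95% intervals (scipy 1.17.1). Each group is 1 sample of pooled animals, so no p-value or standard error was computed. The plan allowed for summed counts, which the TPM files do not hold. The procedure was tested on simulated data. Copies were found by shared stretches of 31 bases in GENCODE transcripts. The genes, lists, classes and rules for named genes were chosen with earlier results of these data known. From the lists, up to 4 genes with the highest mean and 2 with the largest fold were eligible. Those printed, and others named because a count was 5 or less, were picked after their values were seen. The split of high-share cells by Mki67 was added after the data had been seen. The 18 libraries of sorted populations were not used.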

Additional observations from a re-analysis of the deposited data

Results flagged for a closer look

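For each of 3 genes, 1 of the 4 cortex cells stood far above the other 3, by Dixon's ratio of its gap to the whole range. H2afy was at 379 TPM in the third cell, with 23.9 TPM next and 0 in the others. Hmgb1 was at 22.2 TPM in the same cell, with 2.34 TPM next. Hmgb2 was at 86.7 TPM in another cell and 0 in the other 3. The usual chance rate of about 1 in 20 groups is for continuous values and does not apply here, since 2 or 3 of the 4 cells were at 0 for each of these genes.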

How the results depend on the processing

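The counts of genes by Mki67 (9 to 10 of 10), by ribosomal share (10 of 10), by ribosomal share among Mki67-undetected cells (8 to 10), by Mki67 within high-share cells (6 to 9) and by series (5) stayed within 1.5 times under the alternatives run for each: pseudocounts of 0.1 and 10, means of log2 values, unscaled values, no filter or 10 TPM in both groups, median-ratio scaling, added pseudogenes, each series alone (not for the comparison of series), other limits for Mki67 and ribosomal share where used, and 1 cell left out (not for ribosomal share over all SVZ cells or for series). Adding near copies, and leaving out cells other than those of cortex, were chosen after seeing the data. The same held without the 5 cells of low sums. Other counts moved. Against ogp2 cells alone, 5 genes were lower in striatum than in SVZ cells and 5 in cortex, in place of 8 each. With OGStr cells as the only striatum cells, the counts that use striatum stayed within 1.5 times. With 10 TPM asked of both groups, 5 genes were lower in cortex than in SVZ cells, 1 was lower in striatum than in low-share cells in place of 3, and 1 differed between striatum and cortex in place of 4, because genes near 0 on 1 side were no longer tested. By means of log2 values 7 genes differed between striatum and cortex, and H2afz was 1.12 higher in cortex than in SVZ cells on the log2 scale in place of 1.24 lower (-1.24). By the same means all 10 log2 differences by Mki67 were larger, 3.23 to 8.42 in place of 1.72 to 5.17, and their order changed. The cause was not tested. With 1 cell left out, the count was 3 to 7 between striatum and cortex, with 7 when the third cortex cell was absent, 6 to 8 for cortex, 8 for striatum, 3 to 4 for striatum against low-share cells and 6 to 9 for Mki67 within high-share cells. No paired analysis was possible because replicate numbers of single cells only name them and each group is 1 sample of pooled animals. Depth is unknown, so no limit from depth can be given.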
